A study of Mus musculus with 12 samples.

Results

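Collagens are the proteins of 3-stranded helices that make up most of the extracellular matrix, and each chain is encoded by its own Col gene. The 44 collagen chain genes described here are all rows of the expression table whose symbol is Col, a number, the letter a and a number, out of 24528 genes in the table. RNA was sequenced from bulk gastrocnemius, a calf muscle, of 12 male mice aged 4 months. The 6 WT mice were Ank2f/f, with both Ank2 alleles floxed and no Cre listed, and the 6 KO mice were Ank2f/f; HSA-Cre+. All 12 mice thus carried the floxed alleles. HSA-Cre is driven by the human skeletal actin promoter, which is active in skeletal muscle fibres, so the other cells of the muscle are not its target. WT mice were cage-sharing littermates of the KO mice. The comparison asks how the muscle transcriptome differs when ankyrin-B, an adaptor between membrane proteins and the spectrin cytoskeleton, is removed from the fibres.

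Collagen chains fall into families by what they build. Fibrillar chains (types I, III, V and XI among them) form the rope-like fibrils of connective tissue and are made in muscle mainly by fibroblasts. Type IV chains form the mesh of the basement membrane that wraps each fibre, capillary and nerve branch, and type VI chains form beaded filaments that tie this membrane to the fibrils around it. A few rarer chains sit at places where the muscle fibre meets a nerve or a tendon. Because the tissue was sequenced in bulk, fewer cells of a type and less RNA per cell cannot be told apart in any value given here.

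The target gene was checked first. Ank2 stood at 8.55, 8.81, 9.18, 8.40, 9.22 and 9.15 in WT 1 to 6 and at 8.03, 7.63, 7.74, 7.58, 7.54 and 7.90 in KO 1 to 6, as deposited log2 values. Every KO library was below every WT library, and the change was -1.15 (SE 0.14, limma adjusted p = 0.000885). The labelled tissue was present: all 8 muscle fibre markers were measured, among them Acta1 at 19.00 ± 0.19 among WT mice and 19.11 ± 0.07 among KO mice (SD, n = 6), and 0 of the 8 passed limma's test (1 at an unadjusted p under 0.05). Estimated depth ran from 12268065 to 18709281 reads per library and averaged 14116242 ± 1782324 among WT mice and 16192648 ± 1784655 among KO mice (SD, n = 6; exact two-sided permutation p = 0.0693). The library KO 2 stood nearer to the WT libraries than the other KO libraries did for Chrna1, a subunit of the muscle acetylcholine receptor, at 8.92 against 9.71 to 10.90 in the other KO libraries and 8.17 to 8.30 in WT. KO 2 was also the shallowest KO library, at 13447674 estimated reads beside 15400898 to 18709281 in the others. It had 14836 genes above the lowest value of the table, beside 15256 to 15794 in the other KO libraries and 14746 to 15056 in WT. The part of depth in the values of KO 2 was not tested. The effect of KO 2 on the collagen genes is given with their results.

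Of the 44 collagen chain genes, 33 reached 10 estimated reads in 6 or more libraries and were tested, and 11 were too low. None of the 33 passed an adjusted p of 0.05 in limma, where 6.19% of all 12205 tested genes did (756 genes). By direction, 0 of the 33 were called higher, beside 3.11% of all tested genes (380), and 0 lower, beside 3.08% (376). At an unadjusted p of 0.05, 5 of the 33 passed, where 26% of all tested genes did. These 5 were Col9a1, which was lower in KO, and Col7a1, Col11a2, Col24a1 and Col5a3, which were higher. Limma without its variance trend and robust moderation, and limma-voom on the estimated reads, each called 1 collagen gene, Col9a1. These fits called 5.82% and 5.19% of all tested genes. KO libraries did not stand wholly apart from WT libraries for any of the 33, where they did for 2.47% of all tested genes. The difference KO minus WT was above 0 in 25 and below 0 in 8 of the collagen genes, with a median of 0.09 beside -0.01 over all tested genes, of which 47.6% were above 0. Across the alternative analyses the median of the collagen genes ran from 0.03 to 0.15.

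The classes are described by where their members lay. All 9 tested fibrillar chains had a difference above 0, from 0.04 to 0.47 with a median of 0.22. Without WT 4, WT 6 or KO 6, 8 of the 9 were above 0. With no filter on low values 9 of 11 were, and Col11a1 (-0.12) and Col2a1 (-0.03) were below 0. The 7 tested basement membrane chains lay on both sides of 0, from -0.14 to 0.03 with a median of -0.03. The 3 tested junction-type chains lay between 0.09 and 0.17, with a median of 0.15, and the 4 tested beaded filament chains between 0.04 and 0.23. Over the alternatives, the median of the fibrillar chains ran from 0.05 to 0.36 and that of the basement membrane chains from -0.06 to 0.05. The median of the junction-type chains ran from 0.07 to 0.33, with the upper end from limma-voom and from scaled reads, which do not compress low values, and that of the beaded filament chains from 0.06 to 0.25. Between-class differences were not tested, since the genes of a class vary together across mice. When the 12 libraries are compared by the mean of the fibrillar chains, the WT values (8.60 to 9.25) and the KO values (8.67 to 9.49) overlapped.

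**Figure D1:**
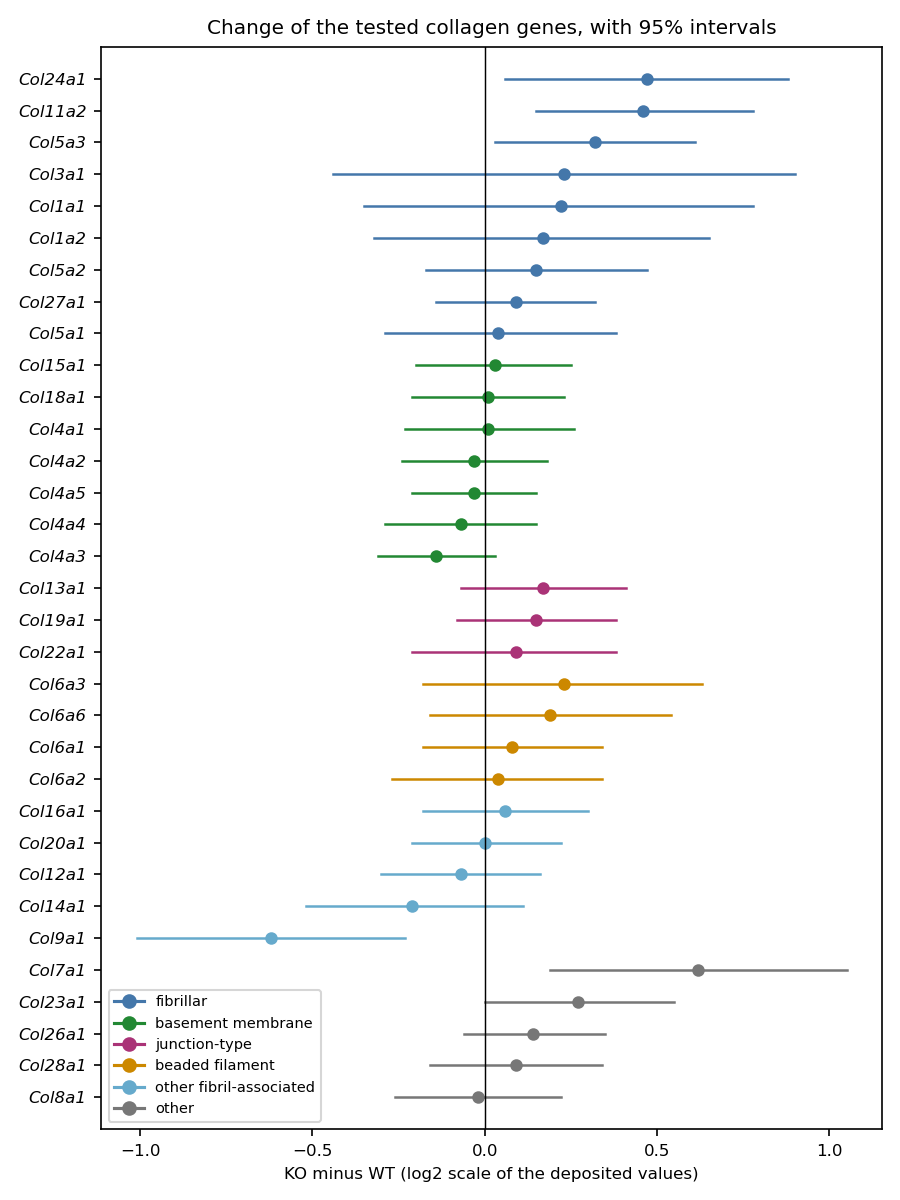
Difference KO minus WT of each of the 33 tested collagen genes in deposited log2 units (horizontal axis), grouped and coloured by class, with the 95% interval of the limma fit as a line. The intervals of Col24a1, Col11a2, Col5a3, Col7a1 and Col9a1 leave out 0, and all basement membrane intervals hold it.

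The 4 collagen genes with the smallest p lie on 4 chromosomes. Col7a1 encodes the chain of collagen VII, the anchoring fibril protein known from skin, and Col11a2 a chain of collagen XI, a minor partner of cartilage fibrils. Col24a1 is a fibrillar chain known from developing bone, and Col9a1 a chain of collagen IX, which coats cartilage fibrils. The 250 bases just before the RefSeq start of each, all on the plus strand of GRCm38.p6, are shown so that the stretch before the start can be compared between them. Capitals mark the E-box CANNTG, the core letters bound by basic helix-loop-helix factors such as the myogenic ones. The stretches are chr9:108953336-108953585 for Col7a1, chr17:34038888-34039137 for Col11a2, chr3:145292222-145292471 for Col24a1 and chr1:24177360-24177609 for Col9a1. The Col11a2 stretch precedes a RefSeq start that differs from the GENCODE start used for positions elsewhere, and it ends 299 bases before that one. The other 3 end at the GENCODE start.
Col7a1: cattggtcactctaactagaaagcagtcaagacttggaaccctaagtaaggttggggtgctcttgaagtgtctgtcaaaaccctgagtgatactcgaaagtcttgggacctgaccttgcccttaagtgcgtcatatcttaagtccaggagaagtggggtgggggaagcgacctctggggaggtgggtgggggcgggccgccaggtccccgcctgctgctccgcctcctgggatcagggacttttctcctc
Col11a2: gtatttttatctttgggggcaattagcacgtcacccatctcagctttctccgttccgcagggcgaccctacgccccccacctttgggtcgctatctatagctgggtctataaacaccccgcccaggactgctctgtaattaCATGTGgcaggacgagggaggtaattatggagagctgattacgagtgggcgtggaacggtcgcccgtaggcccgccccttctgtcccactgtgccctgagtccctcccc
Col24a1: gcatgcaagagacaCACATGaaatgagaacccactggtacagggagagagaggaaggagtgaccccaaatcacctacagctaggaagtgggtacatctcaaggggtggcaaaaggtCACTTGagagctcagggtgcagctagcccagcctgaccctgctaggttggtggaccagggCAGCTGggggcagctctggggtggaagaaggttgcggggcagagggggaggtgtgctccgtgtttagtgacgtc
Col9a1: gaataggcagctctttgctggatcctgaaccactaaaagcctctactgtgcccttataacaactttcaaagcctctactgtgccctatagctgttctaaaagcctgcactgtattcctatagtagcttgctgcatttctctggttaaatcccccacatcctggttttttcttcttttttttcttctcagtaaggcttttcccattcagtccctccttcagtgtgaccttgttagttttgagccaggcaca

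The Col24a1 stretch held 3 E-boxes, that of Col11a2 held 1, and those of Col7a1 and Col9a1 held none of these letters. Col11a2 also held the TATA box TATAAA once and the GC box GGGCGG, counted on both strands, in 2 places, and Col7a1 held GGGCGG once. Every motif was searched on both strands, and none of the 4 contains another. The GC content was 56.4% for Col7a1, 57.6% for Col11a2, 58% for Col24a1 and 43.6% for Col9a1. RefSeq promoters were matched for 35 of the 44 symbols, which gave 38 stretches. Of these, 19 (50%) held CANNTG, beside 66.2% of all 32851 promoters, and 22 (57.9%) held GGGCGG, beside 32.7%. The letters TATAAA were found in 5 of the 38 (13.2%), beside 12.4% of all. The neuromuscular N-box core CCGGAA was in 0 of the 38, beside 12% of all promoters. A match of letters is a description of the stretch and shows no binding.

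Col7a1 (chr9:108953586-108984875) had the largest difference above 0. Its values were 10.18, 9.98, 9.83, 10.83, 9.60 and 10.22 in WT 1 to 6 and 11.31, 10.24, 10.90, 10.62, 10.69 and 10.59 in KO 1 to 6. All 6 KO libraries lay above the WT median, but WT 4 lay above 4 of them. The difference was 0.62 (SE 0.20; limma adjusted p = 0.081; exact permutation p = 0.0238), and put back to scaled reads the KO mean was 156% of the WT mean. The range over the 26 alternatives was 0.32 to 0.76, with limma adjusted p from 0.0185 to 0.47.

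Col11a2 (chr17:34039437-34066685) had 8.06, 8.04, 7.53, 8.05, 7.68 and 7.59 in WT and 8.89, 7.93, 8.37, 8.30, 8.14 and 8.07 in KO. KO 1 was the highest library, and 5 of the 6 KO libraries lay above every WT library. The exception was KO 2. The difference was 0.46 (SE 0.15; limma adjusted p = 0.0729; exact permutation p = 0.0216).

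Col24a1 (chr3:145292472-145552011) was even among WT mice, at 7.59, 7.56, 7.38, 7.48, 7.40 and 7.43. The KO libraries were spread widely, at 8.58, 7.38, 8.08, 7.49, 7.66 and 8.49. KO 1, KO 3, KO 5 and KO 6 lay above all WT libraries, KO 5 only by a little. KO 4 lay among the WT libraries, and KO 2 was the lowest of all libraries, nearly level with WT 3. The difference was 0.47 (SE 0.19; limma adjusted p = 0.142; exact permutation p = 0.0606), and 0.74 with limma-voom.

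Col5a3 (chr9:20770050-20815067) encodes the third chain of collagen V, which seeds and limits the width of fibrils. It stood at 9.45, 9.46, 9.36, 9.61, 9.71 and 9.30 in WT and at 10.37, 9.32, 9.83, 9.69, 9.57 and 10.00 in KO. KO 1, KO 3 and KO 6 were again the highest of the 12, and KO 2 lay among the lowest WT libraries. The difference was 0.32 (SE 0.14; limma adjusted p = 0.162; exact permutation p = 0.0779), and 0.20 without KO 1.

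Col9a1 (chr1:24177610-24252684) was the collagen gene with the smallest p. It stood at 7.35, 7.49, 7.32, 7.57, 7.11 and 7.50 in WT and at 6.73, 7.49, 6.29, 6.83, 7.08 and 6.22 in KO. KO 2 was level with the upper WT libraries, and the other 5 KO libraries lay below all of WT. The difference was -0.62 (SE 0.18; limma adjusted p = 0.0594; exact permutation p = 0.0152), and in scaled reads the KO mean was 47.2% of the WT mean. With limma-voom, which does not compress low values, the difference was -1.49. Depth is thin here, with 11.0 to 109 estimated reads per library. The other chains of collagen IX, Col9a2 and Col9a3, had too few reads to test.

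These 5 genes depended on single libraries. Without KO 2, all 5 passed the limma threshold, at 0.53 for Col11a2 (adjusted p = 0.0275), 0.59 for Col24a1 (0.0411), 0.41 for Col5a3 (0.038), 0.72 for Col7a1 (0.0317) and -0.76 for Col9a1 (0.00294). The share of all genes called rose with them, to 12.4% of 12166. Without WT 4, Col7a1 alone passed, at 0.76 (limma adjusted p = 0.0185), where 7.18% of all tested genes did. Leaving out KO 1 or KO 6 made several differences smaller. Without KO 1 they were 0.50 for Col7a1 (limma adjusted p = 0.168), 0.34 for Col11a2 (0.114) and 0.35 for Col24a1 (0.26). Col5a3 was then at 0.20 (0.308) and Col9a1 at -0.61 (0.129). Without KO 6, Col24a1 was at 0.36 (limma adjusted p = 0.255), Col5a3 at 0.28 (0.29) and Col9a1 at -0.51 (0.118). Col7a1 (0.65) and Col11a2 (0.50) were not smaller without KO 6. With estimated depth as a covariate, the differences were 0.32 for Col7a1, 0.28 for Col11a2, 0.36 for Col24a1, 0.19 for Col5a3 and -0.57 for Col9a1, and in that fit 13 genes of the whole table were called.

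**Figure D2:**
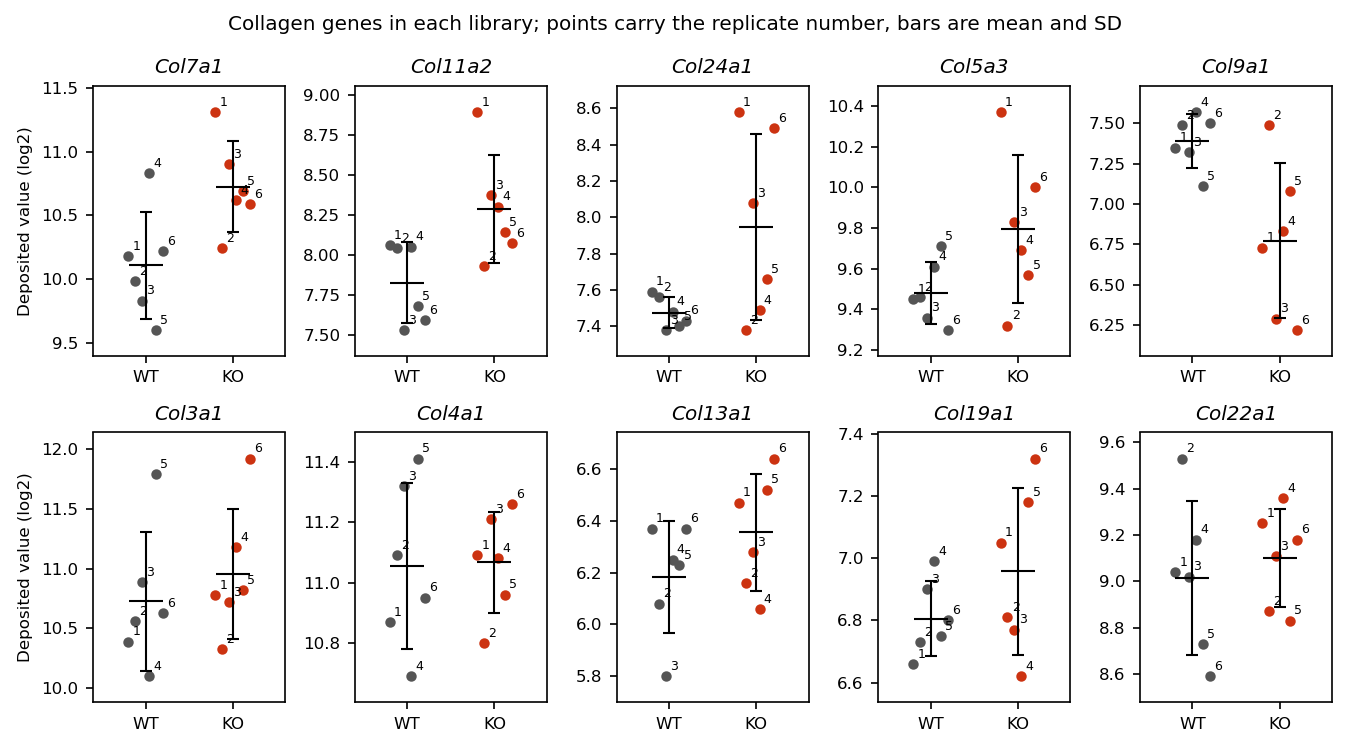
Deposited log2 value (vertical axis) of 10 collagen genes in each WT and KO library, numbered by replicate, with the mean and SD of each group as bars. KO 2 lies among the WT libraries for Col7a1, Col11a2, Col5a3 and Col9a1, and nearly level with the lowest of them for Col24a1. WT 5 and KO 6 are the highest for Col3a1.

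The main fibrillar chains were abundant and uneven between mice. Col3a1, the chain of collagen III, the fine reticular fibrils of muscle, stood at 10.39, 10.56, 10.89, 10.10, 11.79 and 10.63 in WT and at 10.78, 10.33, 10.72, 11.18, 10.82 and 11.92 in KO. One library of each group, WT 5 and KO 6, stood well above the rest. The difference was 0.23 (SE 0.31; limma adjusted p = 0.664), with a 95% interval from -0.44 to 0.90. It was 0.04 without KO 6, 0.11 without WT 4, 0.36 without KO 2 and 0.44 without WT 5. Col1a2, a chain of the collagen I of thick fibrils, had 10.18, 10.24, 10.29, 9.63, 10.88 and 9.77 in WT and 10.13, 9.91, 10.33, 10.62, 10.00 and 11.00 in KO. The same 2 libraries were the highest, and the difference was 0.17 (SE 0.22; limma adjusted p = 0.667) with an interval from -0.32 to 0.65. It was 0.03 without KO 6, 0.06 without WT 4, 0.09 without WT 6, 0.11 without KO 4 and 0.31 without WT 5. Its partner Col1a1 averaged 9.50 ± 0.48 among WT mice and 9.71 ± 0.49 among KO mice (SD, n = 6), a difference of 0.22. Among the rest, Col5a2, Col27a1 and Col5a1 differed by 0.15, 0.09 and 0.04. For Col3a1, Col1a1 and Col1a2 the spread between mice of 1 genotype was larger than the difference between genotypes. Col2a1 and Col11a1, cartilage chains of this class, were not tested for want of reads.

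The abundant basement membrane chains had nearly equal means in both genotypes. Col4a1, which with Col4a2 builds the common type IV trimer, stood at 10.87, 11.09, 11.32, 10.69, 11.41 and 10.95 in WT and at 11.09, 10.80, 11.21, 11.08, 10.96 and 11.26 in KO. All KO libraries lay within the range of WT. The difference was 0.01 (SE 0.12; limma adjusted p = 0.956), with an interval from -0.23 to 0.26. Col4a2 had 10.66, 10.97, 11.05, 10.64, 11.11 and 10.69 in WT and 10.81, 10.62, 10.97, 10.82, 10.75 and 10.95 in KO. Its difference was -0.03 (SE 0.10; limma adjusted p = 0.872), with an interval from -0.24 to 0.18. The sign of both is not settled, since each changed sign in 6 of 26 alternatives, some of which cannot move the difference.

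The rarer type IV chains Col4a3, Col4a4 and Col4a5, known from the kidney filter and from synaptic basement membrane, differed by -0.14, -0.07 and -0.03. Col15a1 and Col18a1, the chains of the proteoglycan-type collagens at basement membranes, differed by 0.03 and 0.01. Type IV genes lie head to head in pairs, and in the annotation Col4a1 and Col4a2 on chromosome 8 overlap by 22 bases at their starts. Col4a3 and Col4a4 on chromosome 1 are 71 bases apart, and Col4a5 and Col4a6 on chromosome X are 1308 bases apart. The libraries carry no strand mark, so reads in the overlap cannot be assigned to 1 gene.

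Of the 4 junction-type chains, none passed the test and 1 was too low to test. Col13a1 (chr10:61838236-61979108) encodes a membrane-spanning collagen of muscle fibres that takes part in maturing the neuromuscular junction. Its values were 6.37, 6.08, 5.80, 6.25, 6.23 and 6.37 in WT and 6.47, 6.16, 6.28, 6.06, 6.52 and 6.64 in KO. KO 1, KO 5 and KO 6 lay above all WT libraries and the rest overlapped. The difference was 0.17 (SE 0.11; limma adjusted p = 0.344; exact permutation p = 0.208), with an interval from -0.07 to 0.41. It rested on 1.03 to 31.0 estimated reads per library, so the log2 difference is compressed. In scaled reads the KO mean was 161% of the WT mean, and the difference was 0.73 with limma-voom (adjusted p = 0.382) and 0.76 or 0.82 on logged scaled reads (limma adjusted p = 0.37 for both). It was 0.10 without WT 3.

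Col19a1 (chr1:24261890-24587472), a fibril-associated chain made in differentiating muscle and some neurons, lies next to Col9a1, with 9205 bases between the ends of the 2 genes. It stood at 6.66, 6.73, 6.90, 6.99, 6.75 and 6.80 in WT and at 7.05, 6.81, 6.77, 6.62, 7.18 and 7.32 in KO. KO 1, KO 5 and KO 6 were again above all WT libraries, and KO 4 was the lowest of the 12. The difference was 0.15 (SE 0.11; limma adjusted p = 0.387), with an interval from -0.08 to 0.38. It was 0.08 without KO 6 and 0.33 with limma-voom. Its neighbour Col9a1 differed by -0.62.

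Col22a1 (chr15:71795795-72034227), a collagen of the myotendinous junction, was the most abundant of the 4. It stood at 9.04, 9.53, 9.02, 9.18, 8.73 and 8.59 in WT and at 9.25, 8.87, 9.11, 9.36, 8.83 and 9.18 in KO. The KO libraries lay within the WT range. The difference was 0.09 (SE 0.14; limma adjusted p = 0.722), with an interval from -0.21 to 0.38, and its sign turned, to -0.10, with depth as a covariate. It was 0.00 without WT 6 and 0.19 without WT 2. Col25a1 (chr3:130131501-130599877), a membrane-spanning collagen needed for motor nerves to enter muscle, stood at 6.11, 5.77, 5.57, 5.77, 5.95 and 5.87 in WT and at 6.00, 5.96, 5.85, 5.83, 5.78 and 5.76 in KO. All these are at or near the floor of 5.57, with at most 5.82 estimated reads in a library. Its reads summed to 13 over WT and 14 over KO.

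The beaded filament chains of collagen VI varied with the same libraries as the fibrillar ones. Col6a1 stood at 9.67, 9.71, 9.72, 9.39, 10.20 and 9.51 in WT and at 9.92, 9.60, 9.60, 9.82, 9.60 and 10.12 in KO. WT 5 and KO 6 were the highest, and the difference was 0.08 (SE 0.12; limma adjusted p = 0.72; interval -0.18 to 0.34). It was 0.01 without KO 6 and 0.18 without WT 5. Col6a2 stood at 9.38, 9.33, 9.45, 9.12, 10.01 and 9.25 in WT and at 9.43, 9.31, 9.33, 9.71, 9.14 and 9.84 in KO, a difference of 0.04 (SE 0.14; limma adjusted p = 0.893; interval -0.27 to 0.34). Its sign changed in 3 of 26 alternatives. The long chains Col6a3 and Col6a6 differed by 0.23 and 0.19.

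The remaining tested chains were near 0 or imprecise. Among other fibril-associated collagens, Col16a1, Col20a1, Col12a1 and Col14a1 differed by 0.06, 0.00, -0.07 and -0.21. Col23a1, a membrane-spanning chain, differed by 0.27 (limma adjusted p = 0.197), Col26a1 by 0.14, Col28a1 by 0.09 and Col8a1, known from vessel walls, by -0.02. The 11 chains not tested had at most 27.9 estimated reads in any library. They were Col2a1 and Col11a1 of the fibrillar class, Col4a6, Col25a1, Col6a4, Col6a5, Col9a2, Col9a3, Col8a2, Col10a1 and Col17a1.

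With no filter on low values, 18054 genes were tested and 4.53% were called, and 2 of the untested collagen genes were among them. They are neighbours on chromosome 9 and are named here after their values were seen. Col6a5 had 5 estimated reads over WT, in 3 libraries, and 37 over KO, in 6 libraries (0.33, limma adjusted p = 0.0436). Col6a4 had 1 read over WT, in 1 library, and 14 over KO, in 6 libraries (0.25, limma adjusted p = 0.0395). Counts this small carry a large counting error, and KO libraries were on average the deeper ones. Their part in these 2 results was not tested.

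A few libraries held the highest or lowest value of many collagen genes. WT 5 was the highest of the 12 libraries in 12 of the 33 tested genes, and WT 4 was the lowest in 14. KO 1 was the highest in 9, which were Col7a1, Col11a2, Col24a1, Col5a3, Col16a1, Col20a1, Col23a1, Col26a1 and Col27a1. KO 6 was the highest in 8 others, which were Col1a1, Col1a2, Col3a1, Col5a2, Col6a3, Col13a1, Col19a1 and Col28a1. WT 1, WT 3, WT 6, KO 2, KO 4 and KO 5 were each the highest in 0. The genes led by KO 1 included the 4 with the largest differences above 0, and those led by KO 6 included all chains of collagens I and III.

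**Figure D3:**
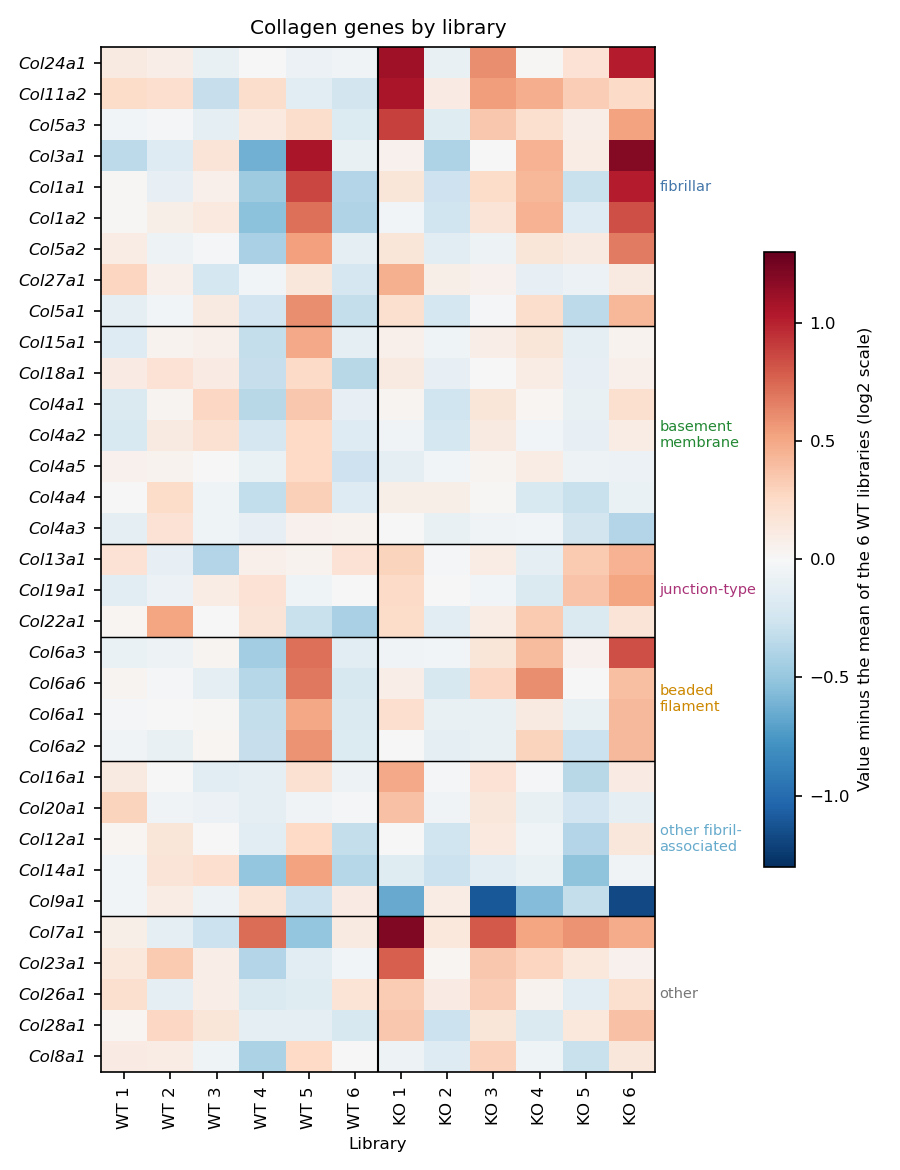
Each tested collagen gene (rows, grouped by class) in each library (columns), as the deposited log2 value minus the gene's mean over the 6 WT libraries (colour). The bulk fibrillar and collagen VI rows are high in WT 5 and KO 6 and low in WT 4, while Col7a1 and Col11a2 are highest in KO 1, and Col24a1 is high in both KO 1 and KO 6.

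The partner chains of collagen I, and the common pair of collagen IV, moved together between mice of the same genotype. After each group's mean was taken out, 19 pairs were correlated over the 12 libraries, with p-values from 100000 permutations within groups and adjusted over the 19. Except for the 6 pairs of partner chains, they were chosen after the values were seen. For Col1a1 and Col1a2, Pearson's r was 0.97 (permutation p = 2e-05, adjusted 0.00019) and Spearman's rho 0.90 (permutation p = 0.00036, adjusted 0.0023), and r was 0.93 without WT 5 and KO 6. For Col4a1 and Col4a2, r was 0.96 (permutation p = 2e-05, adjusted 0.00019) and rho 0.98 (permutation p = 3e-05, adjusted 0.00057), and r stayed at 0.96 without WT 4 and WT 5. The pairs of collagens V and VI rested more on WT 5 and KO 6. Without these libraries r went from 0.81 to 0.47 for Col5a1 and Col5a2 (permutation p = 0.0023, adjusted 0.0056; rho 0.71, permutation p = 0.016, adjusted 0.038). It went from 0.88 to 0.54 for Col6a1 and Col6a3 (permutation p = 0.0021, adjusted 0.0056; rho 0.71, permutation p = 0.016, adjusted 0.038). For Col6a1 and Col6a2 it went from 0.93 to 0.76 (permutation p = 0.00035, adjusted 0.0022; rho 0.95, permutation p = 6e-05, adjusted 0.00057). Some chains of different collagens also moved together, so this is not particular to partner chains, and others did not. For Col1a1 and Col6a1 r was 0.92 (permutation p = 0.00051, adjusted 0.0024; rho 0.83, permutation p = 0.0022, adjusted 0.01; r 0.73 without WT 5 and KO 6). For Col1a1 and Col3a1 it was 0.91 (permutation p = 0.00072, adjusted 0.0027; rho 0.69, permutation p = 0.022, adjusted 0.046; r 0.65 without them). By r, Col24a1 with Col5a3 (0.83), Col1a1 with Col4a1 (0.79) and Col7a1 with Col11a2 (0.74) also passed an adjusted permutation p of 0.05. Col1a1 with Col7a1 (-0.39) or Col24a1 (0.37) did not pass. Nor did Col7a1 with Col5a3 (0.51) or Col9a1 (-0.08), or Col24a1 with Col9a1 (-0.67). The adjusted permutation p of these ran from 0.12 to 0.82. The low-read pair Col4a3 and Col4a4 gave r = 0.53 (permutation p = 0.082, adjusted 0.12) and rho = 0.48 (permutation p = 0.13, adjusted 0.19), which did not pass. These values share library depth and tissue makeup.

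Fibroblast markers, given because fibroblasts make most collagen I and III, had a median difference of 0.01 over 10 genes. Of the 10, 1 fell (3.08% of all tested genes did), Dpp4 at -0.34 (limma adjusted p = 0.0359). Their summed scaled reads spanned 8379 to 14411 among WT mice and 9846 to 14137 among KO mice, with WT 5 highest in its group by their mean level and KO 3 in the other. Col1a1 followed their mean between mice, with r = 0.82 (permutation p = 0.0037, adjusted 0.0077) and rho = 0.78 (permutation p = 0.0064, adjusted 0.02), and r was 0.82 with the 2 farthest libraries left out. For Col24a1 and the same mean, r was 0.37 (permutation p = 0.23, adjusted 0.27). For Col4a1 and the mean of the endothelial markers, r was 0.23 (permutation p = 0.44, adjusted 0.46). The part of fibroblast content in the collagen values was not tested.

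Tendon markers, which bear on the collagen I and XXII of the muscle's ends, numbered 7 tested. None was called in limma (1 at an unadjusted p of 0.05, Scx at 0.36, limma adjusted p = 0.104), and their sums spanned 682 to 1125 among WT mice and 559 to 1334 among KO mice. Cartilage and bone markers, given because Col9a1, Col11a2 and Col24a1 are best known there, were nearly absent, at 12.1 to 26.6 summed reads in WT and 10 to 29.4 in KO. Ibsp and Bglap, which mark bone, were at the floor in all 12 libraries. Schwann cell markers were uneven, at 731 to 2804 in WT and 271 to 5303 in KO, with KO 1 the highest of its group, and none of 7 was called (0 at an unadjusted p of 0.05). The part of nerve content in the KO 1 values was not tested.

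Calls of the lists below stand beside 3.08% of all tested genes called lower, and 26% at an unadjusted p of 0.05 in limma. Among cells that line vessels, 1 of 10 endothelial markers fell (Flt1 at -0.50, limma adjusted p = 0.0348, with a list median of -0.15). Of these 10, 7 lay below 0, and 5, among them the higher Cldn5, had an unadjusted p under 0.05. Of 8 pericyte and smooth muscle markers, 1 fell (Myh11 at -0.54, limma adjusted p = 0.0419, with a list median of -0.25). All 8 lay below 0, and 3 had an unadjusted p under 0.05. Macrophage markers had a median of 0.22, with 0 of 9 called in limma and 2 at an unadjusted p of 0.05. Of 4 tested satellite cell markers 1 fell (Cdh15 at -0.37, limma adjusted p = 0.0341), the only 1 at an unadjusted p of 0.05. Of 3 tested adipocyte markers 1 fell (Adipoq at -0.34, limma adjusted p = 0.0431), and all 3 lay below 0 at an unadjusted p of 0.05. All of these calls were lost without some libraries. These were WT 1, WT 2, WT 3, WT 5, KO 1, KO 3, KO 5 or KO 6 for Dpp4 (adjusted p up to 0.085) and Myh11 (up to 0.0988), and WT 1, WT 2, WT 3, WT 5, KO 1 or KO 6 for Flt1 (up to 0.0836). They were WT 1, WT 2, WT 3, KO 1, KO 3 or KO 6 for Cdh15 (up to 0.0864) and, of the 6 fits in which Adipoq passed the filter, those without KO 3, KO 4 or KO 6 (up to 0.0969). The sums of these lists and the collagen values were not compared by a test.

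Per transcript length, chains of types I, III, IV and VI had the highest levels in WT muscle. Levels are estimated reads per kilobase of transcript, scaled to library depth (RPKM), as mean ± SD over 6 mice. Col3a1 stood at 20.9 ± 11.3, Col4a1 at 20.8 ± 4.80, Col4a2 at 18.2 ± 3.35, Col1a2 at 13.7 ± 5.24 and Col6a1 at 12.2 ± 3.27. Neighbours in this order differed by less than the larger of their SDs, so their rank is not settled. Col6a2 (8.27 ± 2.59), Col1a1 (7.52 ± 3.53), Col7a1 (7.43 ± 2.17), Col15a1 (6.77 ± 1.87) and Col5a3 (6.75 ± 0.858) followed at similar levels. Col7a1 was at 12.0 ± 3.71 and Col5a3 at 9.06 ± 2.89 in KO. Col22a1 stood at 3.27, Col11a2 at 1.57, Col9a1 at 1.50, Col24a1 at 0.886, Col19a1 at 0.454 and Col13a1 at 0.204 in WT. The lowest tested chain was Col4a4 at 0.145. The genes with the smallest p, except Col7a1 and Col5a3, were thus far below the most abundant chains.

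**Figure D4:**
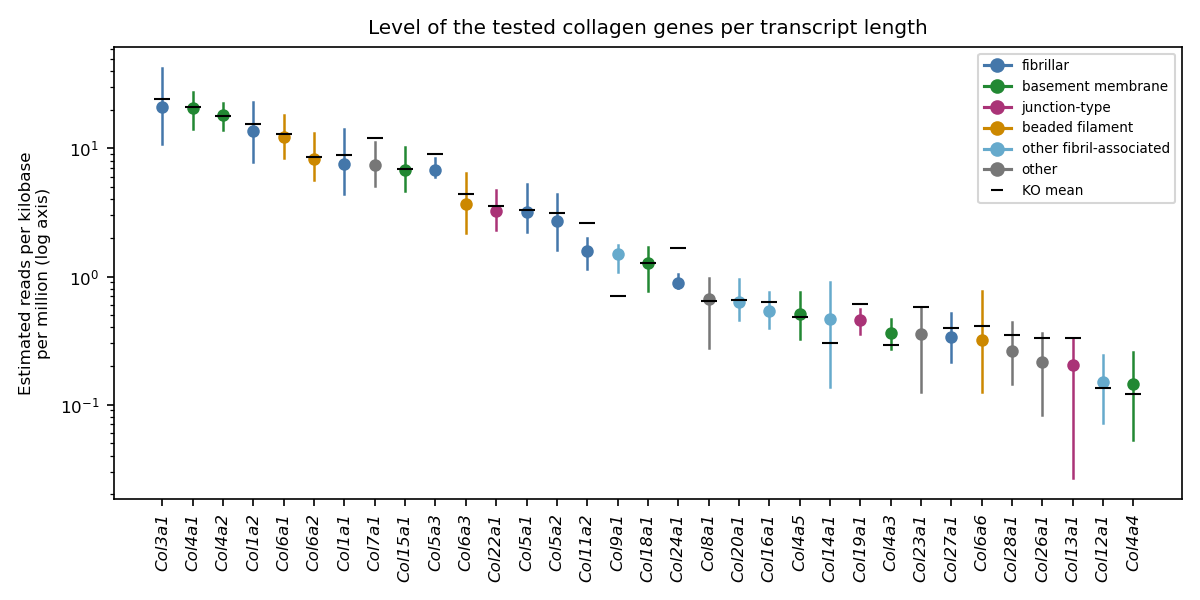
Level of each tested collagen gene in estimated RPKM (vertical log axis), with the WT mean as a point coloured by class, the range of the 6 WT libraries as a line and the KO mean as a black dash. The KO mean lies outside the WT range for Col7a1, Col5a3, Col11a2, Col24a1 and Col9a1, among others, and within it for Col3a1, Col4a1, Col4a2, Col1a2 and Col6a1.

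The genes that fold, process and bind collagen were examined as lists, whose calls stand beside 3.11% of all tested genes called higher and 3.08% called lower. Of 20 tested genes for folding and modification in the cell, none was called in limma, with a median of -0.03, and 7 had an unadjusted p under 0.05. The smallest p belonged to Tmem38b, an endoplasmic reticulum cation channel needed for collagen processing, at -0.40 (limma adjusted p = 0.0502), and to P4ha2, a prolyl hydroxylase subunit, at -0.36 (limma adjusted p = 0.0563). The collagen chaperone Serpinh1 differed by 0.06. Of 12 genes for processing and cross-linking outside the cell, none was called (1 at an unadjusted p of 0.05), and Sparc, a collagen-binding matrix protein, differed by 0.25 (limma adjusted p = 0.152) and Pcolce2 by -0.21 (0.252).

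Of 11 genes for collagen breakdown, 1 fell. Timp3, a matrix-bound inhibitor of metalloproteinases, stood at 11.21, 11.29, 11.17, 11.28, 11.11 and 11.04 in WT and at 10.52, 10.77, 10.52, 10.43, 10.94 and 10.31 in KO. Every KO library lay below every WT library, KO 2 included. The change was -0.60 (SE 0.10; limma adjusted p = 0.00404), and the call held when any of the 12 libraries was left out, with an adjusted p of at most 0.0142. The metalloproteinase Mmp14 differed by 0.35 (limma adjusted p = 0.2).

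Receptors and signals showed calls near the threshold. Of 7 tested collagen receptors, Itgb1, the common integrin beta chain, fell by 0.35 (limma adjusted p = 0.0483), and Ddr1, a receptor kinase that collagen activates, rose by 0.34 (limma adjusted p = 0.0499). Itgb1 lost its call when WT 1, WT 2, WT 3, WT 5, WT 6, KO 1, KO 3 or KO 6 was left out (adjusted p up to 0.118), and Ddr1 lost it without any library but WT 4 and KO 2 (up to 0.119). Of 17 genes of TGF-beta signalling to matrix genes, 2 fell and the median was -0.23. Of these 17, 13 lay below 0 and 4 above. An unadjusted p under 0.05 was found for 8, where 26% of all tested genes had one. The 2 called were the ligand Tgfb3 at -0.36 (limma adjusted p = 0.0359) and the co-receptor Tgfbr3 at -0.30 (limma adjusted p = 0.0375). Each lost its call in 8 of the 12 fits that left out 1 library: Tgfb3 without WT 1, WT 2, WT 3, WT 5, KO 1, KO 3, KO 5 or KO 6 (up to 0.0934), and Tgfbr3 without WT 2 to 6, KO 1, KO 3 or KO 6 (up to 0.0973).

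Of 14 collagen-binding matrix proteins none was called in limma, with 0 at an unadjusted p of 0.05 and a median of -0.02. The smallest p belonged to Fn1, fibronectin, at -0.56 (limma adjusted p = 0.215) and Thbs4 at 0.29 (0.26). Of 11 basement membrane partners none was called, with 3 at an unadjusted p of 0.05 and a median of -0.00. The laminin chains Lamc1 and Lama5 differed by -0.30 (limma adjusted p = 0.108) and 0.27 (0.11).

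Neuromuscular junction organisers act at the site where Col13a1 takes part, not at the myotendinous junction of Col22a1. Of 12 tested, 5 rose (3.11% of all tested genes did) and 1 fell (3.08% of all did), with a median of 0.23. The acetylcholine receptor subunit Chrna1 rose from 8.23 ± 0.05 to 10.20 ± 0.76 (SD over 6 mice; 1.96, limma adjusted p = 0.00712). Ache, acetylcholinesterase, rose by 0.59 (limma adjusted p = 0.0201), and Colq, the collagen-tailed anchor of that enzyme, differed by -0.24 (limma adjusted p = 0.123). The receptor phosphatase Ptprs rose by 0.42 (limma adjusted p = 0.029), Chrnb1 by 0.58 (0.0265) and Chrne by 0.37 (0.0439), while the kinase Musk fell by 0.62 (0.0499). All but Chrna1 lost their calls without some libraries. These were WT 3 or KO 6 for Ache (adjusted p up to 0.053) and WT 2, WT 3, WT 5, KO 1, KO 3 or KO 6 for Ptprs (up to 0.0736). They were WT 1, WT 2, WT 3, WT 5, KO 1, KO 3 or KO 6 for Chrnb1 (up to 0.0684), WT 1, WT 2, WT 3, WT 5, WT 6, KO 1 or KO 3 for Chrne (up to 0.102), and any library but WT 4 and KO 2 for Musk (up to 0.123).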

How the data were processed

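Poly-A RNA of 12 gastrocnemius muscles, each from a separate mouse per the labels, was sequenced without a strand mark. The authors deposited 1 table of values on a log2 scale for 24528 genes. Reads were handled with fastp, STAR and featureCounts on mm10, per the submitters' processing notes, which name no versions. The transformation and annotation are not named there. The values share 1 floor in all libraries and have the shape of a variance-stabilizing transformation, which compresses differences between low values. Inverting it gave scaled reads and, from the smallest step in each library, estimated reads. Of the low values, 88.5% to 93.1% came out within 0.1 of a whole read. These estimates served the filter, depth and levels, and never the main test.

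The design foresaw limma for log2 values, and a count test only if the table held raw counts. Since the table held log2 values, the 12205 genes that reached 10 estimated reads in 6 or more libraries were fitted as deposited with limma 3.58.1 (R 4.3.3). Group was the sole term, with a variance trend and robust fitting. Two-sided p-values were adjusted over all tested genes by Benjamini-Hochberg, at a threshold of 0.05. Single genes were also compared by the exact two-sided permutation test over 924 assignments. The smallest p it allows is 0.00216.

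Values in every library are given for called collagen genes (there were none), for the 4 junction-type chains, for the top 2 by level of the fibrillar, basement membrane and beaded filament classes, and for the 4 others with the smallest p. Col5a3 was added after its values were seen. Pathway lists name called genes or the 2 with the smallest p. A few other genes are named for their role. The members and lists were chosen with earlier results of these data known. Positions and lengths are from GENCODE M21. Tests on simulated data of 12205 genes recovered 80% of 100 genes changed by 0.5 and 98% of 100 changed by 1, with 10 false calls. The simulated noise was independent between genes and had the same spread in both groups. In the real libraries many genes vary together, so these rates need not hold for the collagen genes. Alternatives covered tests, scalings, filters, thresholds, length, GC and depth corrections, a replicate block and leaving out each library. Those that changed only the variance moderation, the filter, the threshold or the block left the difference of a tested gene as it was. Leaving out WT 5 and KO 6 together was added after the data were seen.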

Additional observations from a re-analysis of the deposited data

Results flagged for a closer look

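Col6a2, a chain of the collagen VI of beaded filaments, had 1 WT library far from the others. WT 5 stood at 10.01, and the other WT libraries lay between 9.12 and 9.45. The gap was large for a group of 6 by Dixon's criterion, which chance passes in about 1 of 20 groups. No allowance was made for the number of genes and groups looked at. WT 5 was also the highest of the 12 libraries in 12 of the 33 tested collagen genes.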

How the results depend on the processing

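Of the 33 tested collagen genes, 0 were called higher and 0 lower in limma. Without variance trend and robust moderation, and with limma-voom, 1 was lower (Col9a1 at -0.62, adjusted p = 0.0491, and at -1.49, adjusted p = 0.0398). Those fits called 5.82% and 5.19% of all 12205 genes. Without the filter on low values 2 collagen genes were higher, where 4.53% of all 18054 genes were called. At a threshold of 0.1 there were 2 higher and 1 lower, where 13.2% of all 12205 genes (1608) were called. With the replicate number as a block 1 was higher (Col11a2 at 0.46, adjusted p = 0.0332), with 798 genes called in all beside 756. Whether the replicate numbers pair mice is not known. Correlations of deviations between same-numbered libraries were 0.29, 0.19, -0.08, -0.36, -0.07 and -0.04. Only 1 of 6 WT and 2 of 6 KO libraries matched their own number best. Such correlations cannot show whether same-numbered mice were littermates. Leaving out 1 library at a time gave 0 to 4 higher, 0 to 1 lower and 2 to 19 called pathway genes, beside 11. The share of all tested genes called in these fits ran from 1.57% (without KO 6) to 12.4% (without KO 2). Without WT 5 and KO 6, 69 genes were called in the whole table and no collagen gene.

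Small differences changed sign. Col4a2 was 0.03 with quantile normalization, 0.05 with a length correction, 0.00 with depth as a covariate and -0.07 (WT 1) to 0.02 (WT 5) when 1 library at a time was left out. Col4a1 was -0.03 with a GC correction and -0.06 (WT 4) to 0.08 (WT 5) without single libraries. Col22a1 was -0.10 with depth as a covariate, and Col6a2 was -0.04 (KO 6) to 0.15 (WT 5) without single libraries. The cause was not tested. The Ank2 call held in all 26 alternatives (-1.57 to -1.01). Depth limits Col13a1, Col25a1 and the chains not tested, and reads copied in PCR count more than once.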
